A study of Mus musculus with 30 samples.

Results

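Fos, Fosb, Jun, Junb, Jund, Egr1, Atf3, Ier2, Nr4a1 and Dusp1 were followed as the immediate early genes of sorted spinal cord microglia and astrocytes. They were chosen by name among the protein-coding genes of the deposited table, and all 10 were found among its 30952 genes. Each cell type has 15 libraries, from 4 naive mice, 6 mice with EAE on vehicle and 5 on RIPK1inh-1, called EAE-vehicle and EAE-RIPK1inh-1 here. All mice were female C57BL/6. EAE, an autoimmune inflammation of the CNS, was induced by immunization with a peptide of the myelin protein MOG. At a clinical score of about 1, mice with EAE were dosed 2 times a day for 3 days with 20% Captisol as vehicle or with 50 mg/kg of the RIPK1 kinase inhibitor. Mice with EAE were immunized when 8 to 10 weeks old, and the age and any dosing of the naive mice are not given in the sources used here. Microglia were gated as CD11b+ CD45int CX3CR1+ cells and astrocytes as GLAST+ CD11b- CD45- CD140a- cells, after the cords had been cut up in Accutase, passed through needles, spun and stained. Both cell types came from the cords of the same mice, but the labels do not say which microglia and astrocyte libraries share a mouse.

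Immediate early genes are transcribed within minutes of a stimulus, because the factors that switch them on, such as SRF and CREB, are already in the cell and need only be phosphorylated. Fos and Jun proteins pair into AP-1, a DNA-binding dimer that acts on later genes, while Egr1 and Nr4a1 bind DNA on their own. Dusp1 closes the loop by removing phosphate from the MAP kinases that induced it. In microglia and other brain cells these genes respond to cytokines and to injury, and they are also known to respond to the handling of tissue before a sort, so their spread between libraries is given here beside their levels.

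The files name no genome build, and all 10 positions are those of the GENCODE annotation of GRCm38, which is used here. Among the AP-1 subunits, Fos lies at chr12:85473890-85477273 on the plus strand and Fosb at chr7:19302696-19310051 on the minus strand. Jun lies at chr4:95049034-95052222 and Junb at chr8:84974484-84978718, both on the minus strand, and Jund at chr8:70698949-70700616 on the plus strand. Nr4a1, an orphan nuclear receptor, lies at chr15:101254269-101274795 on the plus strand. Atf3, a stress-induced relative of the AP-1 subunits, lies at chr1:191170296-191218039, Ier2, a small nuclear protein, at chr8:84661331-84662852, and Dusp1 at chr17:26505590-26562128, all on the minus strand. The deposited annotation marks 5 of the 10, Atf3, Dusp1, Jun, Jund and Junb, as confounded with another gene, so part of their fragments may belong to a neighbour or an overlapping transcript. It marks 15717 of all 30952 genes in this way, a similar share.

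The promoters below are shown because these genes moved together from library to library in microglia. RefSeq promoters on GRCm38.p6, from 250 bases before to 50 bases after the transcription start, were matched for 8 of the 10 genes, and Egr1 and Ier2 were not matched. The 4 with the closest likeness to the other members in microglia are printed 5′ to 3′ on the gene's own strand, at chr4:95052173-95052472 (Jun, minus), chr17:26508423-26508722 (Dusp1, minus), chr12:85473640-85473939 (Fos, plus) and chr7:19309996-19310295 (Fosb, minus). Capitals mark the CREB-binding motif TGACG on either strand, which in Dusp1 includes the palindrome TGACGTCA, and the TATA box TATANA. In the TATA box N stands for A or T only.
Jun: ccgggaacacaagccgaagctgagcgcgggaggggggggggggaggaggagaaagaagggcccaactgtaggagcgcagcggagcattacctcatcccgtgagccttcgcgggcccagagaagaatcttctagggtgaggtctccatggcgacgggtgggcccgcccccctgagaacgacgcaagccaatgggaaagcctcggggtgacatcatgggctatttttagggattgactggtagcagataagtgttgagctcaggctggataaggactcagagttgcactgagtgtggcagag
Dusp1: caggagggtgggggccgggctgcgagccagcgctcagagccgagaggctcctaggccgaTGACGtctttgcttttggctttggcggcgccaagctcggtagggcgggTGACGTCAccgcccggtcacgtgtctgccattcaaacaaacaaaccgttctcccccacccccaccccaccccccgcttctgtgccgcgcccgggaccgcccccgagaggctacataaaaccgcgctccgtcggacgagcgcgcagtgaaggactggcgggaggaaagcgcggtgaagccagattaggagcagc
Fos: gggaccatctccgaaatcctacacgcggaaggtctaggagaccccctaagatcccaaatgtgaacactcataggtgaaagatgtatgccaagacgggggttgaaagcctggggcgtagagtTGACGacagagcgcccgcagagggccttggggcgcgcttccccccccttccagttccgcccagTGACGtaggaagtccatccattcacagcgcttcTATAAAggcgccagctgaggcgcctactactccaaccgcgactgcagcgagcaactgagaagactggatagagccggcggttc
Fosb: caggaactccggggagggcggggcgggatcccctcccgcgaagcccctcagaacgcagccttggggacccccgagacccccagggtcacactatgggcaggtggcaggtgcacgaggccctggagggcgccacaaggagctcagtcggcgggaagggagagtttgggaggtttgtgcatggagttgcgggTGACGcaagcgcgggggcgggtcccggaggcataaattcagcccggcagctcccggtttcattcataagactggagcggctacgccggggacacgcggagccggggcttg
In Fos, TGACG begins at -129 and -66 and the TATA box at -33 from the start, where the base before the start is -1. In Dusp1 the palindrome begins at -143 and a further TGACG at -191, and in Fosb TGACG begins at -60. TGACG, which is also part of the palindrome, was in 6 of the 8 member promoters (Atf3, Fosb, Junb, Fos, Nr4a1 and Dusp1) and in 20.8% of all 32851 promoters of this length. The palindrome TGACGTCA was in 1 (1.79% of all), the EGR site GCGNGGGCG in 2, Fosb and Nr4a1 (3.47% of all), and TATANA in 2, Fos and Junb (17.1% of all). In the EGR site N stands for T or G only. The AP-1 site TGANTCA, with N as C or G only (5.20% of all), and the CArG box, which SRF binds (1.63% of all), were in none of the 8 windows. All motifs were searched on both strands, and a match describes letters and not binding. Sequence outside these windows and the promoters of Egr1 and Ier2 were not searched, so a motif absent here may lie there.

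Levels are log2 FPKM (fragments scaled to exon length and library size), so a step of 1 is a 2-fold difference and genes can be compared per length. The values were quantile-normalized over the 30 libraries, and each library holds the same sorted values from 0 to 15.34. Genes without signal in a library share its lowest stretch of values and are ordered there by their place in the table, up to 2.74 in 1 library, so such a value carries no level. Between 8710 and 20398 genes per microglia library and 6728 and 22981 per astrocyte library had signal. Depth is unknown, so no counting error can be given. The mean of 8 astrocyte markers was 7.72 to 9.72 in astrocytes and did not exceed 1.99 in microglia, and that of 10 microglia markers was 8.04 to 10.90 in microglia and did not exceed 3.69 in astrocytes. In bulk RNA of sorted cells, fewer cells of a type and less RNA per cell cannot be told apart.

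In naive microglia most immediate early genes were highly expressed, and in EAE most of them were far lower, with or without the inhibitor. Over the 10 genes, the mean level per library was 4.88 to 7.56 in naive microglia, 2.04 to 3.45 in EAE-vehicle microglia and 2.54 to 4.84 in EAE-RIPK1inh-1 microglia. In astrocytes it was 1.05 to 2.32 in naive, 1.98 to 3.49 in EAE-vehicle and 1.55 to 3.37 in EAE-RIPK1inh-1 libraries. In naive microglia the order of mean levels was Dusp1 (8.57 ± 1.62, SD, n = 4), Fos (8.45 ± 1.13), Jun (7.74 ± 1.22), Junb (7.71 ± 1.38), Ier2 (7.29 ± 0.88), Egr1 (7.09 ± 1.45), Jund (3.81 ± 0.80), Atf3 (3.62 ± 2.16), Fosb (2.94 ± 1.45) and Nr4a1 (0.98 ± 1.15). Neighbours among the first 6 differed by less than their SD, and the gap between Egr1 and Jund exceeded it.

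**Figure D1:**
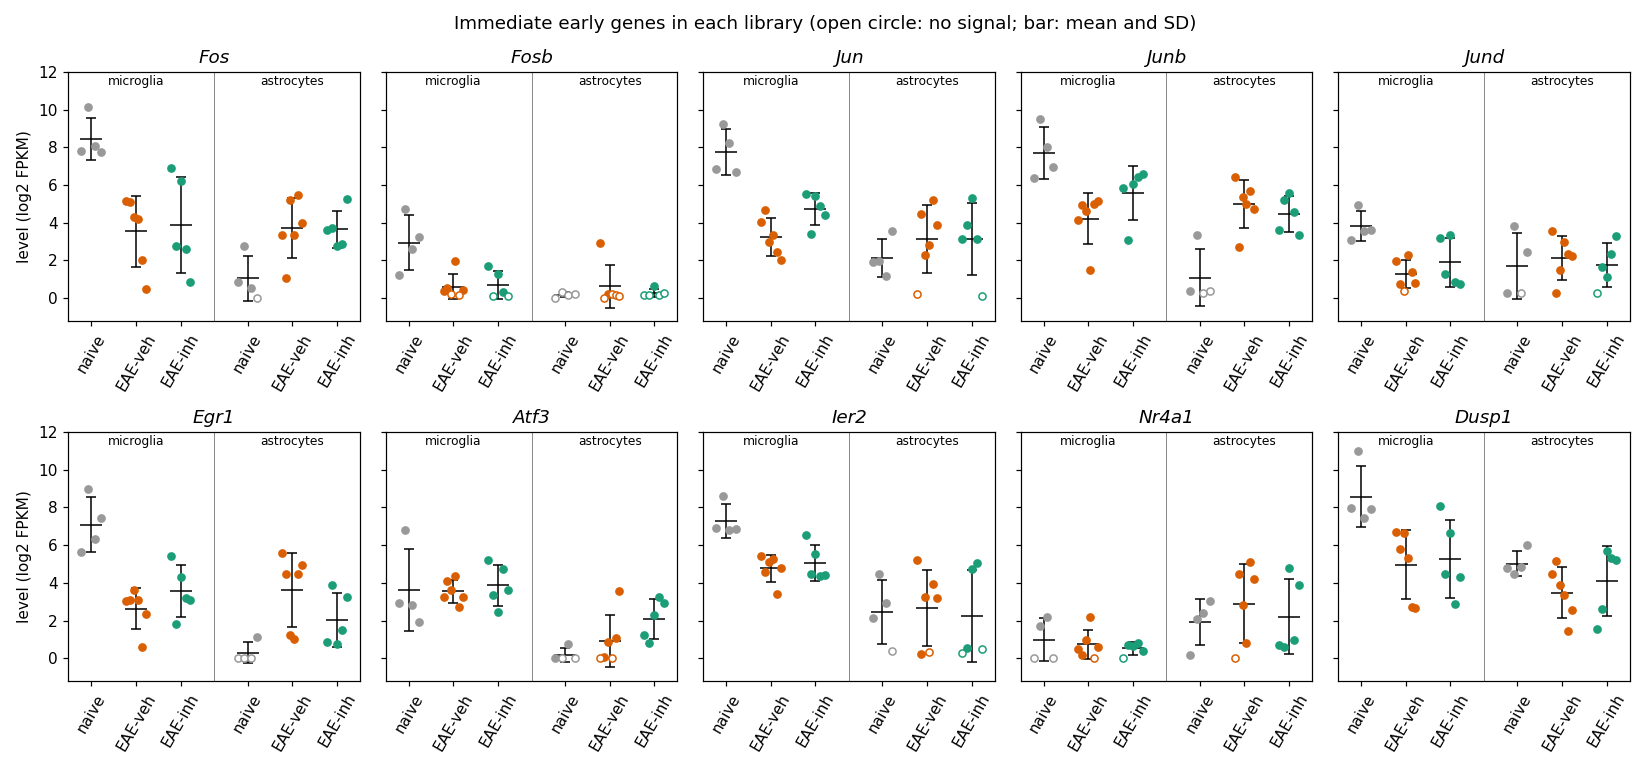
Level of each immediate early gene (vertical axis, log2 FPKM) in naive, EAE-vehicle (EAE-veh) and EAE-RIPK1inh-1 (EAE-inh) libraries of microglia and astrocytes. Filled points are libraries with signal, open points libraries without, and bars give the mean and SD. Fos, Jun, Junb, Egr1, Ier2, Jund and Dusp1 lie higher in all 4 naive microglia libraries than in any EAE-vehicle microglia library.

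The effect of EAE on the AP-1 subunits was examined first in microglia. Fos stood at 7.81, 10.13, 8.08 and 7.77 in the 4 naive libraries, and at 0.46, 4.25 and 5.14 as the lowest, median and highest of the 6 EAE-vehicle libraries. Every naive library was above every EAE-vehicle library, and EAE-vehicle libraries 5 and 6, at 2.01 and 0.46, were the lowest. Fos fell by 4.91 on the log2 scale (standard error 1.20, adjusted p = 0.0319, limma with Benjamini-Hochberg adjustment), with an exact two-sided permutation p of 0.00476, the smallest that 4 against 6 libraries allow. Jun, the main partner of Fos, stood at 6.82, 9.25, 8.22 and 6.66 in naive libraries and at 2.01, 3.15 and 4.69 as the lowest, median and highest of EAE-vehicle libraries. The groups did not overlap, and Jun fell by 4.50 (standard error 0.62, adjusted p = 0.000547), the smallest adjusted p among the 10 genes.

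Junb, a Jun relative that often opposes Jun in AP-1, stood at 6.37, 9.51, 8.03 and 6.95 in naive libraries and at 1.498, 4.77 and 5.14 as the lowest, median and highest in EAE-vehicle. It fell by 3.50 (standard error 0.84, adjusted p = 0.0288), and the library lowest in Junb, EAE-vehicle 4, was not among the lowest in Fos or Jun. Jund, in many tissues the most constant Jun, stood at 3.09, 4.95, 3.56 and 3.63 in naive libraries and at 0.37, 1.08 and 2.27 as the lowest, median and highest in EAE-vehicle. It fell by 2.55 (standard error 0.61, adjusted p = 0.0284). Fosb, a Fos relative, stood at 1.22, 4.72, 2.61 and 3.21 in naive libraries and at 0.17, 0.39 and 1.96 in EAE-vehicle, where libraries 3 and 5 had no signal. The groups overlapped through 1 library on each side, naive 1 and EAE-vehicle 4, and Fosb fell by 2.34 (standard error 0.61, adjusted p = 0.0452). With values under 3 raised to 3, the difference shrank to -0.48 for Fosb, which was then no longer called, and to -0.81 for Jund.

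The zinc finger factor Egr1 stood at 5.66, 8.97, 6.32 and 7.42 in naive microglia and at 0.57, 3.05 and 3.62 as the lowest, median and highest of EAE-vehicle microglia. It fell by 4.47 (standard error 0.77, adjusted p = 0.00332), and the groups did not overlap. Ier2 stood at 6.89, 8.61, 6.81 and 6.83 in naive libraries and at 3.42, 4.94 and 5.43 in EAE-vehicle. It fell by 2.52 (standard error 0.52, adjusted p = 0.0111), again without overlap. Dusp1, the feedback phosphatase, stood at 7.97, 10.97, 7.43 and 7.89 in naive libraries and at 2.68, 5.56 and 6.67 in EAE-vehicle. Its 2 lowest EAE-vehicle libraries were 5 and 6, as for Fos. The difference of -3.59 for Dusp1 (standard error 1.12, unadjusted p = 0.00608 from limma, exact permutation p = 0.00952) was called at the cutoff of the study, a fold over 1.5 with an unadjusted p under 0.05, while its adjusted p was 0.104.

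Atf3 and Nr4a1 were the exceptions. Atf3 stood at 2.92, 6.79, 2.84 and 1.94 in naive microglia and at 2.74, 3.44 and 4.38 as the lowest, median and highest in EAE-vehicle, a difference of -0.07 with a 95% interval of -1.77 to 1.63. Naive library 2 alone was above the EAE-vehicle range, and naive library 4 alone was below it. Without naive library 2 the difference of Atf3 was 0.99 (unadjusted p = 0.0993 from limma), so that library set its direction. Nr4a1 was near the lower end of the scale throughout, with 2 of 4 naive and 1 of 6 EAE-vehicle libraries without signal, and differed by -0.25 (95% interval -1.33 to 0.84). In all, 8 of 10 genes were called lower in EAE-vehicle microglia, against 5.86% of the 28958 genes tested and 16.1% of those with a mean level of at least 4, and 7 passed an adjusted p of 0.05, against 1.56%. The 7 genes whose groups did not overlap compare with 2.36% of genes. The median log2 difference of the 10 was -3.03, against -0.02 over all genes tested.

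Naive microglia library 2 stood apart within its group. It held the highest naive value of 9 of the 10 genes, and its mean of 7.56 over the 10 compares with 4.88, 5.61 and 5.23 in naive libraries 1, 3 and 4. Heat shock genes, which are also known to respond to handling, averaged 6.85 in this library and 4.93 to 5.67 in the other naive microglia. Without it, all 8 genes were still called lower in EAE-vehicle microglia, with differences of -4.35 for Fos, -4.00 for Jun, -3.84 for Egr1 and -2.79 for Dusp1, and 3 in place of 7 passed adjustment (Jun, Egr1 and Ier2). Markers of monocytes and neutrophils averaged 1.95 to 5.93 in naive and 3.22 to 7.17 in EAE-vehicle microglia, and 4 of 9 were called higher. Microglia markers averaged 10.20 to 10.90 in naive and 8.04 to 8.56 in EAE-vehicle microglia. Of these 10, 8 were called lower and 1 higher. Lower calls made up 5.86% of all genes tested and 16.1% of those with a mean level of at least 4. None of the 7 T cell markers was called by limma in this comparison, at the adjusted or unadjusted cutoff. What part these cells, the state of the microglia or the isolation had in the lower immediate early genes was not tested, and naive mice differ from mice with EAE in disease and in dosing together.

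**Figure D2:**
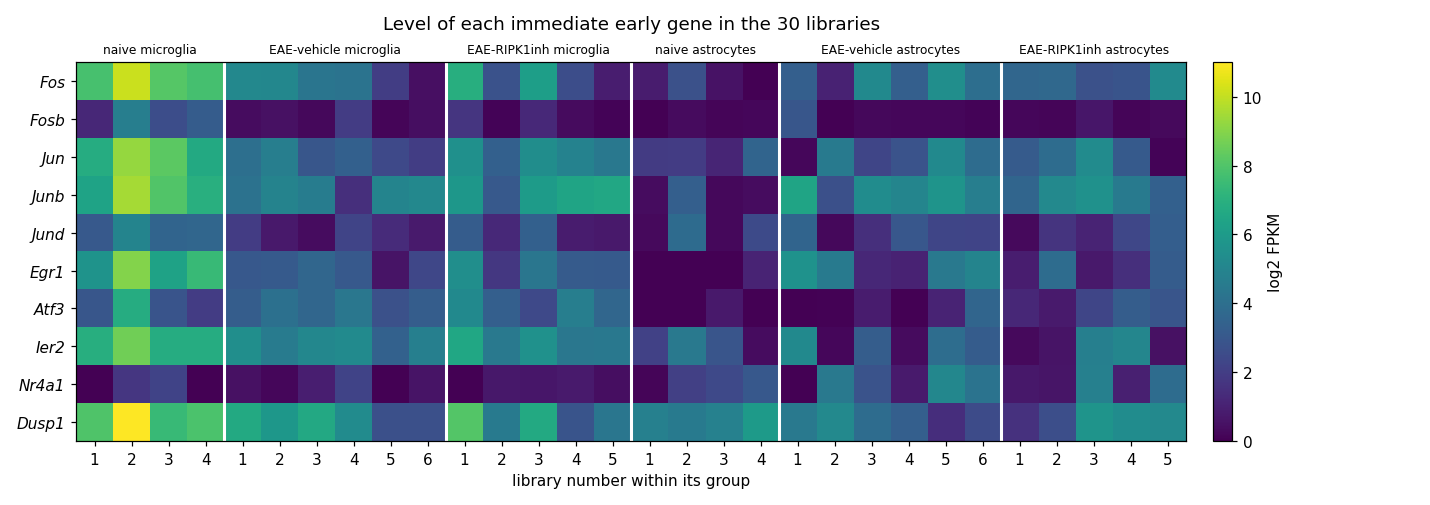
Level of each immediate early gene (rows, colour in log2 FPKM) in each of the 30 libraries (columns, numbered within their group). Naive microglia library 2 is the brightest column, and the 15 astrocyte libraries share no such column.

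RIPK1inh-1 against vehicle in microglia asks whether kinase inhibition changed these genes during disease. Of the 10 genes, 1 was called, against 1.76% of all genes in either direction and 1.06% higher. Jun stood at 5.52, 3.39, 5.39, 4.88 and 4.38 in the 5 inhibitor libraries, against 2.01 to 4.69 with vehicle. The groups overlapped, since inhibitor library 2 lay within the vehicle range and library 5 within its upper part. Jun was higher by 1.47 (standard error 0.58, unadjusted p = 0.0235 from limma, exact permutation p = 0.0325), and its adjusted p was 0.930. All 5 inhibitor libraries lay above the vehicle mean of 3.24. The call was lost without vehicle library 5 or 6 or inhibitor library 1 or 3, where the difference was 1.309, 1.229, 1.273 and 1.304.

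The remaining 9 genes were not called, and their intervals were wide. The difference was 1.38 for Junb (95% interval -0.31 to 3.06), 0.94 for Egr1 (-0.61 to 2.50) and 0.33 for Fos (-2.07 to 2.74). Fos stood at 6.90, 2.77, 6.19, 2.62 and 0.87 in the 5 inhibitor libraries, and Dusp1 at 8.06, 4.47, 6.66, 2.87 and 4.31. For both genes inhibitor libraries 1 and 3 were high and the other 3 were at or below the vehicle median. Inhibitor library 1 held the highest value of its group in 7 of the 10 genes, and library 3 carried the highest level of monocyte and neutrophil markers of all microglia libraries, 8.04, and of T cell markers, 2.26. Heat shock genes averaged 5.90 in inhibitor library 1 and 4.63 to 5.12 in the other 4.

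Against naive microglia, EAE-RIPK1inh-1 microglia had the same 8 genes called lower, where 4.71% of all genes were, and 14.2% of those with a mean level of at least 4. The naive libraries enter this comparison as well as the previous one against naive, so they are not independent. Jun (-3.03, standard error 0.64, adjusted p = 0.0199), Egr1 (-3.53, 0.80, adjusted p = 0.0308) and Ier2 (-2.22, 0.54, adjusted p = 0.0415) passed adjustment, as 0.922% of genes did. The differences of Fos (-4.58), Dusp1 (-3.29), Fosb (-2.24), Junb (-2.12) and Jund (-1.92) had adjusted p values of 0.0722 to 0.313. Jun, Ier2, Egr1 and Fos did not overlap between the groups, 4 of 10 against 2.8% of genes. Without naive library 2, 6 of the 8 were still called lower and none passed adjustment. Junb at -1.52 and Dusp1 at -2.49 were no longer called, and Atf3 was then called higher, by 1.29 (unadjusted p = 0.0420 from limma).

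**Figure D3:**
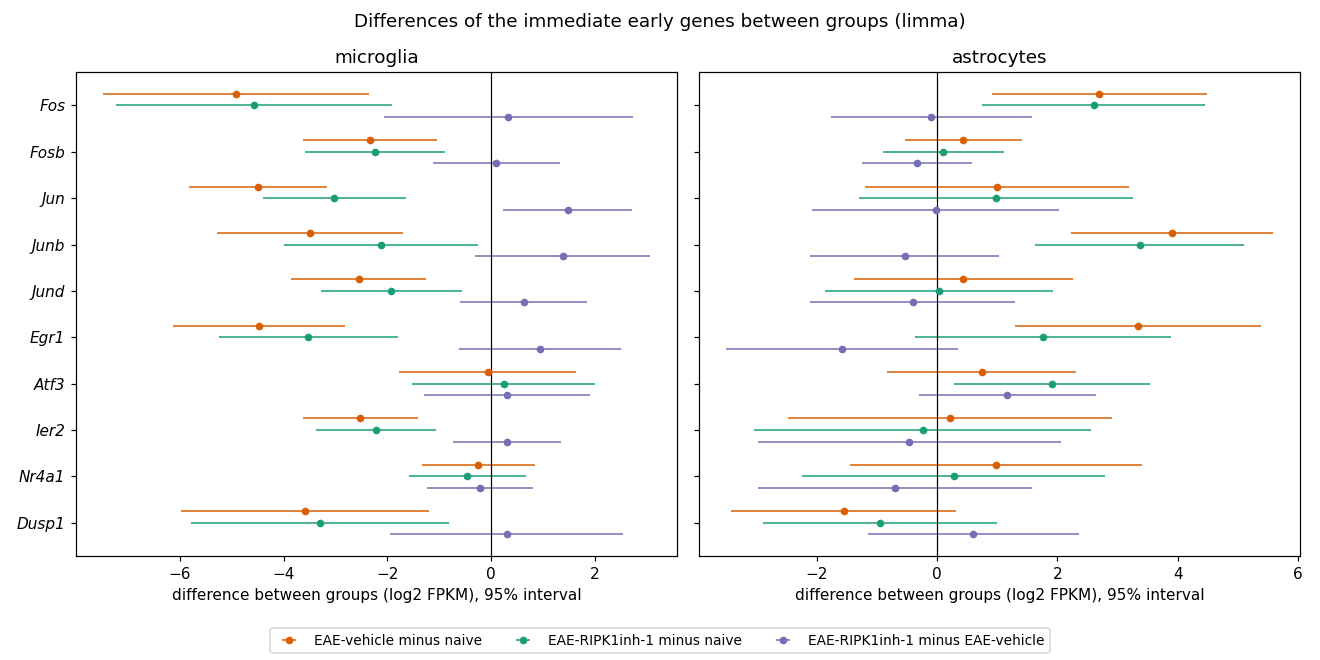
Difference of each immediate early gene between groups (horizontal axis, log2 FPKM) in microglia and astrocytes, with points for the limma estimate and lines for the 95% interval. In microglia the intervals of 8 genes lie below 0 in EAE-vehicle against naive, and in astrocytes those of Fos, Junb and Egr1 lie above 0.

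In astrocytes the direction was the opposite for the genes called in the main fit. EAE-vehicle against naive astrocytes called 3 of 10 genes, all higher, against 6.71% of 30718 genes in either direction and 2.69% higher, or 12.5% higher among genes with a mean level of at least 4. Junb stood at 0.39, 3.34, 0.26 and 0.36 in the 4 naive libraries, where libraries 3 and 4 had no signal, and at 2.69, 5.18 and 6.45 as the lowest, median and highest of the 6 EAE-vehicle libraries. Naive library 2 overlapped with the lowest EAE-vehicle library, and the other 3 naive libraries lay far below. Junb rose by 3.90 (standard error 0.79, adjusted p = 0.0391) and alone passed adjustment, as 0.342% of genes did in this direction. It was called under every alternative tried, but its adjusted p ran up to 0.273, with the replicate number as a block. Without single libraries its adjusted p ran from 0.00792 to 0.160, and it passed without naive library 2 or EAE-vehicle library 2 and not without any other naive or EAE-vehicle library, nor without inhibitor library 2 or 4. Fos stood at 0.83, 2.75, 0.55 and 0.00 in naive astrocytes, the last without signal, and at 1.06, 3.67 and 5.45 in EAE-vehicle. The difference was 2.70 (standard error 0.84, unadjusted p = 0.00568 from limma, exact permutation p = 0.0286), with an adjusted p of 0.273. Egr1 had signal in 1 of 4 naive astrocyte libraries, at 1.12, and stood at 1.04, 4.46 and 5.60 as the lowest, median and highest in EAE-vehicle. The 6 EAE-vehicle libraries fell apart for Egr1, with libraries 3 and 4 at 1.23 and 1.04 and the others at 4.45 or more. The difference was 3.34 (standard error 0.96, unadjusted p = 0.00335 from limma, exact permutation p = 0.0143), with an adjusted p of 0.205. Since part of the naive values carry no signal, these sizes depend on the lower end of the scale. With values under 3 raised to 3 the differences were 1.95 for Junb, 1.25 for Egr1 and 1.05 for Fos, and Fos was then not called.

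The other 7 genes were not called in astrocytes. Dusp1 was the gene with the highest naive level, 4.78, 4.48, 4.84 and 5.98, and stood at 1.43, 3.62 and 5.18 in EAE-vehicle, a difference of -1.55 (95% interval -3.42 to 0.32). With library quality weights the difference of Dusp1 was -2.51 (adjusted p = 0.103 from limma), and it was then called lower, its direction in microglia. Jun differed by 1.00 (-1.19 to 3.19), Nr4a1 by 0.98 (-1.45 to 3.40) and Atf3 by 0.74 (-0.83 to 2.31). Jund and Ier2 differed by 0.43 and 0.22, and Fosb had signal in none of the 4 naive and in 2 of the 6 EAE-vehicle libraries. EAE-vehicle library 1 was the highest of its group in 5 genes (Egr1, Fosb, Ier2, Junb and Jund) and was also the library with the fewest genes with signal, 6728.

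Most leukocyte markers were also called higher in EAE-vehicle than in naive astrocytes. T cell markers averaged 0.17 to 0.80 in naive and 1.05 to 6.18 in EAE-vehicle astrocytes, where 6 of 7 were called higher, and monocyte and neutrophil markers averaged 0.12 to 1.28 and 1.95 to 5.29, where 7 of 9 were called higher. Of these markers, none was at 0 in all libraries of either group. Oligodendrocyte markers averaged 6.19 to 7.39 and 6.38 to 9.91, and 4 of 7 were called higher. Astrocyte markers averaged 9.06 to 9.72 in naive and 7.72 to 8.85 in EAE-vehicle astrocytes, and 5 of 8 were called lower and 1 higher, with a median of -1.46. Microglia markers averaged 0.90 to 2.22 and 1.69 to 3.69, and 3 of 10 were called higher. Erythrocyte markers ranged from 3.88 to 8.67 in naive and from 0.08 to 7.398 in EAE-vehicle astrocytes, and none of the 5 was called. In each treatment the EAE library with the lowest leukocyte markers was still above the naive libraries in them. EAE-vehicle library 4, with T cell markers at 1.05 and monocyte and neutrophil markers at 1.95, held Junb at 4.99 and Fos at 3.33, above all 4 naive libraries, and Egr1 at 1.04, below the highest naive library. EAE-RIPK1inh-1 library 1, with T cell markers at 0.93 and monocyte and neutrophil markers at 1.33, held Junb at 3.58, Fos at 3.62 and Egr1 at 0.88, in the same relation to the naive libraries. The part of leukocytes and other cells in the higher Junb, Fos and Egr1 was not tested.

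**Figure D4:**
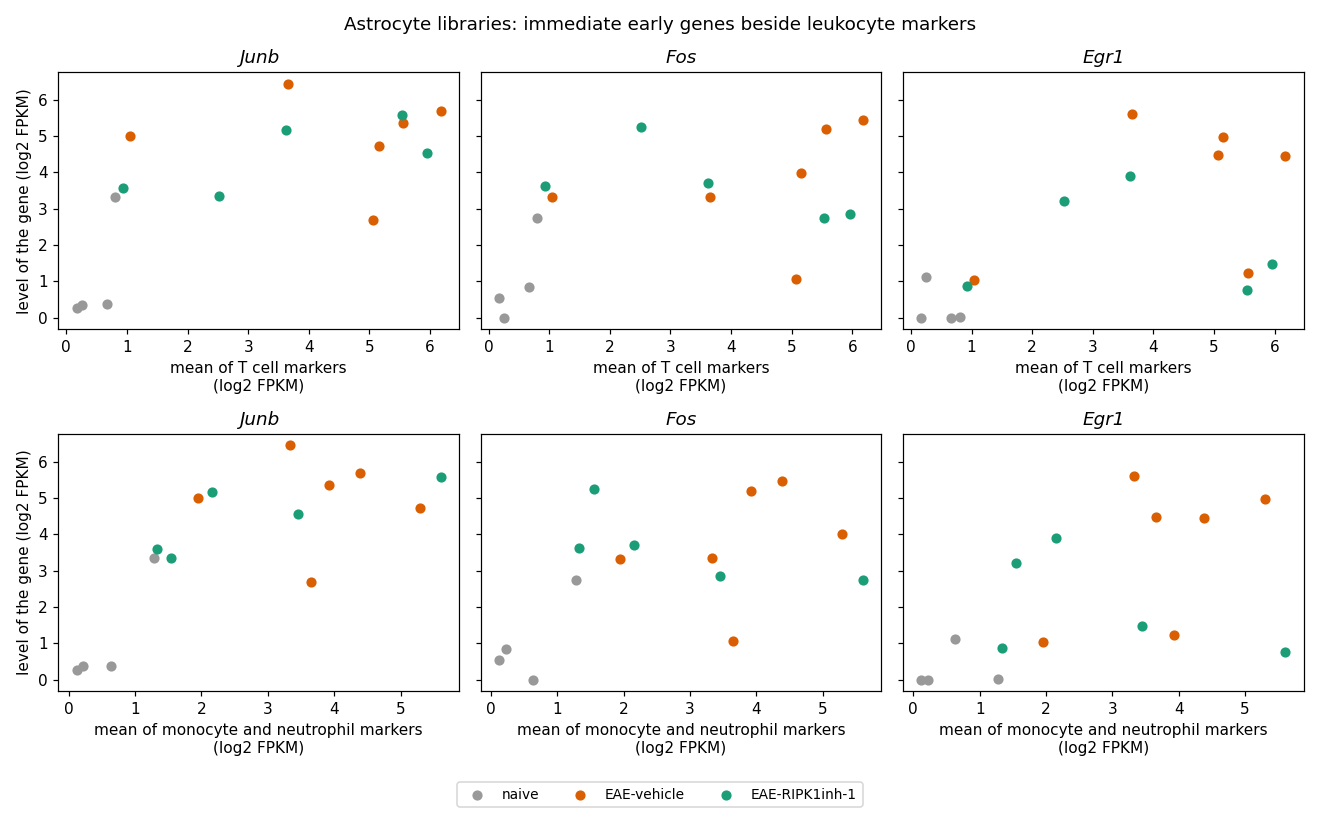
Levels of Junb, Fos and Egr1 (vertical axes, log2 FPKM) in the 15 astrocyte libraries against the mean of 7 T cell markers (upper row) and of 9 monocyte and neutrophil markers (lower row), coloured by group. The EAE libraries with T cell markers of 1.05 and 0.93 lie above the naive libraries for Junb and Fos and among them for Egr1.

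RIPK1inh-1 against vehicle in astrocytes called 0 of 10 genes by limma, at an unadjusted p under 0.05 and after adjustment, against 3.02% of all genes. The smallest adjusted p over all genes was 0.840. Egr1 stood at 0.88, 3.90, 0.76, 1.48 and 3.22 with the inhibitor, and its difference from vehicle was -1.58 (95% interval -3.50 to 0.34). The groups overlapped, with 3 inhibitor libraries and 2 vehicle libraries under 1.5. Atf3 stood at 1.22, 0.81, 2.29, 3.25 and 2.92 with the inhibitor, where EAE-vehicle ran from 0.00 to 3.59, a difference of 1.17 (-0.30 to 2.64). Egr1 was called lower, by 2.06, 2.10 and 2.04, without vehicle library 3, vehicle library 4 or inhibitor library 2, and Atf3 higher, by 1.70, without vehicle library 6. Fos (-0.09), Jun (-0.02) and Junb (-0.54) had intervals of -1.77 to 1.58, -2.07 to 2.03 and -2.11 to 1.04, so differences within these bounds are not excluded.

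Against naive astrocytes, EAE-RIPK1inh-1 astrocytes had Junb, Fos and Atf3 called higher, 3 of 10 against 1.98% of genes and 7.71% of those with a mean level of at least 4. The naive libraries are those of the comparison with vehicle. Junb stood at 3.58, 5.17, 5.58, 4.55 and 3.36 with the inhibitor, above all naive libraries, a difference of 3.36 (standard error 0.82, unadjusted p = 0.000912 from limma, adjusted p = 0.251, exact permutation p = 0.00794). The differences of Fos (2.60, standard error 0.87) and Atf3 (1.91, standard error 0.76) had adjusted p values of 0.678 and 0.868. Junb and Atf3 did not overlap between the groups, 2 of 10 against 0.817% of genes. The call of Atf3 was lost without naive library 2 or 4 or inhibitor library 4 or 5. With values under 3 raised to 3, Fos differed by 0.71 and Atf3 by 0.05, and neither was called.

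In naive mice most of these genes were higher in microglia than in astrocytes. Microglia against astrocytes in naive mice called 9 of 10 genes, all higher in microglia, where 10.0% of genes were and 25.8% of those with a mean level of at least 4, and 8 passed adjustment, against 5.94%. The difference was 7.41 for Fos (standard error 1.15, adjusted p = 2.03e-05), 6.81 for Egr1 (0.97, adjusted p = 5.73e-06), 6.63 for Junb (0.90, adjusted p = 2.79e-06) and 5.60 for Jun (0.95, adjusted p = 7.19e-05). Ier2 (4.82), Dusp1 (3.54), Atf3 (3.43) and Fosb (2.77) passed as well, and Jund at 2.11 had an adjusted p of 0.105. All of these but Jund were without overlap, 8 of 10 against 7.05% of genes, and Nr4a1 was the exception, with a difference of -0.94 (95% interval -2.96 to 1.09). With values under 3 raised to 3, the differences of Atf3 and Fosb were 0.95 and 0.48 and were not called.

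With EAE and vehicle, Atf3 (2.62, standard error 0.69, adjusted p = 0.00805) and Ier2 (2.08, 0.89, adjusted p = 0.134) were called higher in microglia and Nr4a1 lower (-2.16, 0.81, adjusted p = 0.0781), 3 of 10 against 22.4% of genes, a share near that of all genes. With values under 3 raised to 3, the difference of Atf3 was 0.499 and was not called, and the call of Ier2 was lost without EAE-vehicle astrocyte library 2 (1.58) or 4 (1.60). Fos, Jun and Fosb had differences of -0.19, 0.10 and -0.01. With RIPK1inh-1, Atf3 (1.76) and Ier2 (2.84) were called higher in microglia, 2 of 10 against 21.7% of genes. Leaving out single libraries gave 1 to 5 calls there. Nr4a1, which responds to calcium and antigen receptor signals in lymphocytes, was the gene with the highest levels in astrocytes relative to microglia, at 4.46, 5.10 and 4.18 in EAE-vehicle astrocyte libraries 2, 5 and 6, which also carried T cell markers above 5. Library 3, with T cell markers at 5.56, held 2.81, and library 4, with T cell markers at 1.05, held 0.81. The 4 naive astrocyte libraries, with T cell markers at 0.17 to 0.80, held Nr4a1 at 0.15, 2.08, 2.42 and 3.01. The part of T cells in Nr4a1 was not tested.

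Whether EAE acted differently on microglia and astrocytes was tested as an interaction in the joint fit of the 30 libraries, which treats libraries of the same mouse as independent. It was called for 6 of 10 genes, all more negative in microglia, where 3.71% of genes were, and 4 passed adjustment, against 0.378%. The difference was -7.81 for Egr1 (standard error 1.25, adjusted p = 0.00103), -7.61 for Fos (1.48, adjusted p = 0.00701), -7.40 for Junb (1.16, adjusted p = 0.000823) and -5.50 for Jun (1.22, adjusted p = 0.0215). Fosb (-2.77) and Jund (-2.99) did not pass adjustment, at 0.0926 and 0.238. Fosb had signal in none of the naive astrocyte libraries. With values under 3 raised to 3, the difference of Fosb was -0.48 and was not called. Ier2 was then called, at -2.76 (adjusted p = 0.0396). Jund stayed called under the alternatives, with differences from -3.70 to -0.69. The same test for RIPK1inh-1 called Egr1 alone, 2.52 higher in microglia (standard error 1.17, unadjusted p = 0.0406 from limma), with an adjusted p of 0.948, where 3.15% of genes were called in either direction. That call was lost without any of 11 single libraries. Since the libraries of both cell types were normalized together, a difference between cell types also carries the effect of forcing their values to 1 distribution.

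In microglia the spread between libraries of a group was larger for each of the 10 genes than for most genes tested. There the residual SD within groups was 2.00 for Fos and 1.87 for Dusp1, above 99.9% and 99.8% of the genes tested. It was 1.40 for Junb, 1.31 for Atf3, 1.28 for Egr1, 1.02 for Jun and 0.85 for Ier2. The median of the 10 was 1.15, against 0.39 for all genes tested and 0.58 for those with a mean level of at least 4. In astrocytes the median of the 10 was 1.38, against 0.79 for all genes tested and 0.93 for those with a mean level of at least 4. Fosb, with an SD above that of 47.8% of genes, was not among the more variable there, and Ier2 (2.10) and Nr4a1 (1.87) varied most. These SDs set the width of the intervals given above.

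**Figure D5:**
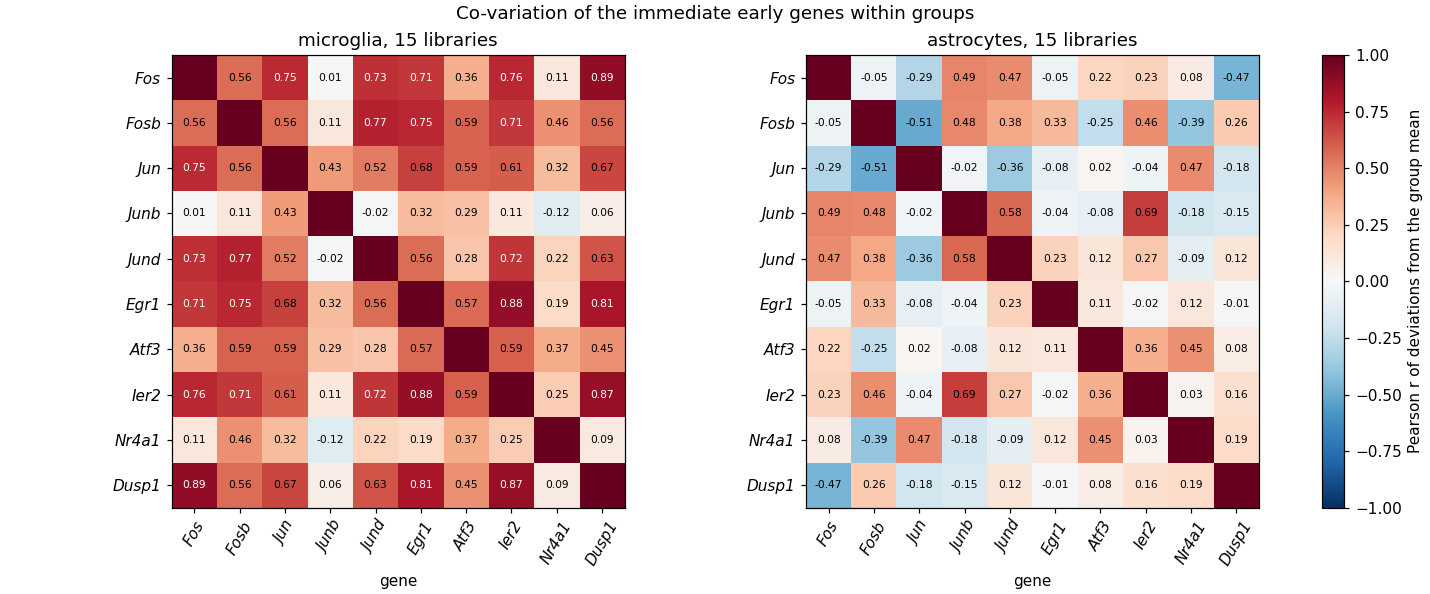
Pearson r between immediate early genes of their deviations from the group mean, over 15 microglia libraries (left) and 15 astrocyte libraries (right), with red for positive and blue for negative values. In microglia Fos, Dusp1, Egr1 and Ier2 form a red block and Junb and Nr4a1 stand out of it, and in astrocytes no such block is seen.

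In microglia this spread was shared. Deviations from the group mean correlated with a median r of 0.56 over the 45 pairs of genes, from -0.12 to 0.89, with 25 pairs above 0.5, over 15 libraries that share a normalization. Fos and Dusp1 had the highest r, 0.89 (Spearman's rho 0.90), followed by Egr1 and Ier2 with 0.88 (rho 0.84). Set against the mean of the other 9 genes, Ier2 (0.88), Egr1 (0.87), Jun (0.82) and Dusp1 (0.81) were closest, and Nr4a1 (0.24) and Junb (0.16) were farthest. Without naive library 2 the median r was 0.35, with 16 pairs above 0.5, so part of the shared spread rests on that library. In astrocytes the median r was 0.08, from -0.51 to 0.69, with 2 pairs above 0.5, Junb with Ier2 (0.69) and Junb with Jund (0.58). Fos and Dusp1, the closest pair in microglia, had an r of -0.47 there.

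The protein-coding genes whose deviations most resembled the mean deviation of the 10 members were then named, among genes with a mean level of at least 4. In microglia, out of 3749 genes, these were Id2, an inhibitor of helix-loop-helix factors (r = 0.93, rho = 0.91 over 15 libraries), Btg2, an antiproliferative immediate early gene (r = 0.88, rho = 0.89), Hspa1a, an inducible Hsp70 (r = 0.79, rho = 0.75), Ppp1r15a, a stress-induced phosphatase subunit (r = 0.79, rho = 0.59), and Ccl4, a chemokine (r = 0.78, rho = 0.78). Without naive library 2 and inhibitor library 1, the libraries farthest from the median, r was 0.89, 0.80, 0.76, 0.48 and 0.64 in the same order. Hspa1a has the near-identical copy Hspa1b, and fragments may be split between them. In astrocytes, out of 2974 genes, they included Pdcd4 (r = 0.86), Crip1 (r = 0.83), Ppp4c (r = 0.80) and Lyz2, a lysozyme of myeloid cells (r = 0.80), and r was 0.63 to 0.74 without EAE-vehicle library 4 and inhibitor library 1. None of these 4 is an immediate early gene. In both cell types these genes were picked for the highest r among all genes compared, so their r is no test of likeness. The 10 members themselves had a median r of 0.08 in astrocytes, so their mean deviation there is not a shared course.

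Of a list of 42 other immediate early genes, 39 were found in the table. In EAE-vehicle against naive microglia 13 of 39 were called lower, against 5.86% of all genes and 16.1% of those with a mean level of at least 4. Of the 13, 6 passed adjustment, 1 of the 39 was called higher, and the median was -0.35, against -0.02 over all genes tested. Rhob (-2.996, standard error 0.37, adjusted p = 0.000223), a small GTPase, Btg2 (-3.83, 0.54, adjusted p = 0.000716), the kinase Sgk1 (-3.17, 0.45, adjusted p = 0.000731), the transcription factor Klf4 (-3.96, 0.59, adjusted p = 0.00108), the ERK phosphatase Dusp6 (-1.77, 0.31, adjusted p = 0.00368) and Zfp36, which destabilizes cytokine mRNAs (-2.82, 0.67, adjusted p = 0.0272), passed adjustment. With RIPK1inh-1 against vehicle 4 of 39 were called higher in microglia (Sgk1, Klf6, Dusp2 and Gadd45b, by 1.28, 1.21, 0.90 and 1.40), against 1.06% of all genes, and none passed adjustment. In EAE-vehicle astrocytes 5 of 39 were called higher, against 2.69% of all genes and 12.5% of those with a mean level of at least 4, a share near the latter. They were Btg2 (3.31), Sgk1 (3.04), Dusp2 (2.86), Zfp36 (2.15) and Nr4a3 (1.07), while Klf4 (-0.77) and Dusp6 (-1.89) were called lower, and none passed adjustment.

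Of 13 other AP-1 dimer partners, 2 were called lower in EAE-vehicle against naive microglia, among them Maf (-2.39, adjusted p = 0.00151). Batf (1.68) was the 1 called higher, and the median was -0.08. The 2 of 13 compare with 5.86% of all genes called lower and lie near the 16.1% of genes with a mean level of at least 4. Of 31 MAP kinase, SRF and CREB components, 3 were called lower, Rps6ka1 (-1.47, adjusted p = 0.0137), Creb1 (-0.83) and Map2k1 (-0.73), and Mapkapk2 (2.15) was called higher, with a median of -0.29. The 3 of 31 lie near the 5.86% of all genes called lower and below the 16.1% of genes with a mean level of at least 4. Among 15 heat shock genes Hspa1a (-4.16, adjusted p = 0.0743), Hspb1 (-3.71, adjusted p = 0.00859) and Hspa1b (-1.52) were called lower in EAE-vehicle microglia and Hspe1 (1.25, adjusted p = 0.0392) higher, while in astrocytes Hspb1 (3.91, adjusted p = 0.0495), Hspa1a (2.54) and Hsp90aa1 (0.77) were called higher and Hspa5 (-0.81) lower. The 3 of 15 called lower in microglia compare with 5.86% of all genes and 16.1% of those with a mean level of at least 4. The 3 of 15 called higher in astrocytes compare with 2.69% and 12.5%. Hspa1a and Hspb1, both inducible chaperones, were called in the same direction as Fos and Junb in each cell type. Hspe1 in microglia and Hspa5 in astrocytes were called in the other direction. Of 14 cytokine and NF-kB genes of ex vivo activation, Rgs2 (-3.03, adjusted p = 9.03e-06), Rgs1 (-1.94) and Ccl3 (-1.62) were called lower and Il1b (2.06) higher in EAE-vehicle microglia. In astrocytes Tnfaip3 (3.22), Rgs1 (3.49), Ccl3 (2.35) and Nfkbiz (1.53) were called higher, none after adjustment. The 3 of 14 called lower in microglia compare with the same 5.86% and 16.1%, and the 4 of 14 called higher in astrocytes with 2.69% and 12.5%. The part of isolation in these differences was not tested, since the sources used here do not say which libraries were prepared together.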

How the data were processed

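RNA of sorted spinal cord microglia and astrocytes was sequenced in 30 libraries. Per the study's methods, the authors aligned, quantified and normalized the reads in OmicSoft Array Studio 10.1.1.3 and deposited log2 FPKM values. The values are quantile-normalized over all libraries, which removes differences in overall level. The aligner, the genome build used upstream and the offset before the log are not given in the sources used here. Counts were not used here, so depth is unknown and no counting error can be given.

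Groups were taken from the sample labels, and every column was matched to 1 sample. Replicates are labelled as separate samples, and p-values measure the spread between these samples. For each cell type, 1 model with 3 groups was fitted to all genes with limma 3.58.1 (R 4.3.3, lmFit and eBayes with a trend), and a joint model of all 30 libraries compared the cell types, treating libraries as independent although both cell types came from the same mice. A gene was called at a fold over 1.5 with an unadjusted p under 0.05, and p was adjusted over all genes by Benjamini-Hochberg. Exact permutation tests over libraries were two-sided. The study's methods name a paired test, but the labels give no pairing, so the fits are unpaired. Genes named are the 10 members, up to 6 called genes of each list with the smallest adjusted p, and the 5 genes per cell type most alike the members, of which 2 genes in all are not reported here. The members and lists were chosen with earlier results of these data known. Alternatives were a filter at a mean of 1, protein-coding genes only, values under 3 raised to 3, centring, library weights, no trend, fits of the compared groups only, genes with signal as a covariate, a replicate block and leaving out each library. Leaving out the 3 libraries with signal in fewer than 9000 genes was added after the data were seen. The fits were tested on simulated shifts. Python 3.11.15, pandas 2.3.3, numpy 2.4.6 and scipy 1.17.1 were used.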

Additional observations from a re-analysis of the deposited data

Results flagged for a closer look

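Single libraries stood far from the rest of their group in 12 of 60 combinations of gene and group, by Dixon's criterion. Its chance rate of about 1 in 20 holds for independent, normally spread values. These combinations share libraries, genes that moved together and values without signal, so the count cannot be set against that rate. Naive microglia library 2 was far above the other naive microglia in Fos (10.13, next 8.08), Ier2 (8.61, next 6.89) and Dusp1 (10.97, next 7.97). In EAE-vehicle microglia, library 4 was high in Fosb (1.96, next 0.51) and low in Junb (1.498, next 4.16), and inhibitor microglia library 2 was low in Junb (3.09, next 5.82). Among naive astrocytes, library 2 was high in Junb (3.34, next 0.39), library 4 in Egr1 (1.12, next 0.02) and library 3 in Atf3 (0.74, next 0.02), where several of the other libraries had no signal. Among EAE-vehicle astrocytes, library 1 was high in Fosb (2.94, next 0.23), where genes without signal reach 2.74 in that library and 4 of the other 5 libraries had no signal, and library 6 in Atf3 (3.59, next 1.10), and inhibitor astrocyte library 3 was high in Fosb (0.66, next 0.26).

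The effect of EAE differed between microglia and astrocytes, by limma's interaction term, for Egr1 (-7.81), Fos (-7.61), Junb (-7.40), Jun (-5.50), Jund (-2.99) and Fosb (-2.77), and the effect of RIPK1inh-1 for Egr1 (2.52). Of these, Egr1, Fos, Junb and Jun passed adjustment for the effect of EAE, and Egr1 did not for the effect of the inhibitor. With values under 3 raised to 3, Fosb (-0.48) was not called for the effect of EAE.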

How the results depend on the processing

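Of 110 effects on the 10 genes, 44 were called, and under 1392 alternative values of these none reversed and 50 were no longer called. Of 2041 alternative values of the other effects, 39 were called. The number of genes called for RIPK1inh-1 against vehicle in microglia went from 1 to 3 with library quality weights and to 0 with the replicate block, and ran from 0 to 2 without single libraries. In astrocytes it went from 0 to 1 with values under 3 raised to 3 (Egr1), with library quality weights (Dusp1) and with the replicate block (Atf3), and ran from 0 to 1 without single libraries. In EAE-vehicle against naive astrocytes, Dusp1 was called lower with library quality weights, and Fos was not called with values under 3 raised to 3. RIPK1inh-1 against naive astrocytes went from 3 to 1 with values under 3 raised to 3 and ran from 2 to 3 without single libraries. Microglia against astrocytes with RIPK1inh-1 went from 2 to 1 with values under 3 raised to 3 and with library quality weights, and ran from 1 to 5 without single libraries. The difference between cell types in the inhibitor effect went from 1 to 0 with library quality weights, with the replicate block and without libraries under 9000 genes with signal, and ran from 0 to 2 without single libraries. The cause of these changes was not tested. Without single libraries the other counts ran from 8 to 8 for EAE-vehicle against naive microglia, 3 to 3 in astrocytes, 7 to 8 for RIPK1inh-1 against naive microglia, 8 to 9 and 2 to 4 between cell types in naive and EAE-vehicle mice, and 6 to 7 for the difference in the effect of EAE. In EAE-vehicle against naive microglia, 7 genes passed adjustment, against 4 with library quality weights, 1 with the replicate block and 3 without naive library 2. With the replicate block, genes that passed adjustment went from 3 to 0 for RIPK1inh-1 against naive microglia, from 1 to 0 for EAE-vehicle against naive astrocytes and from 4 to 2 for the difference in the effect of EAE. The labels do not say what a replicate number shares. Deviations from the group mean of same-numbered libraries correlated from -0.193 to 0.355, and no pair of groups had every value over 0.1. Between the microglia groups, numbers 1 and 3 correlated from 0.165 to 0.355 and numbers 2 and 4 from -0.141 to 0.0294. Libraries of different numbers were not compared, so these values cannot decide whether replicate numbers pair the libraries. Depth is unknown, and a value without signal carries no level.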
